A study of Mus musculus with 4 samples.

Results

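Mamdc2, Angptl6, Cox6a2, Avil, P2rx3, Cdr2l and Extl1 are 7 genes best known from tissues outside the blood, and each had far fewer reads in MLL-AF9 leukaemic cells after OHT than after EtOH. They were taken by symbol from the authors' deposited table, where each has 1 of 18061 RefSeq transcripts (16545 symbols). The genes were chosen by their OHT and EtOH group means in that table, so their falls are given here as a description, without a test. Each had reads in both OHT libraries, and the smallest count was 4 reads, for Cox6a2 in 1 library. Whether so few reads reflect expression of the gene was not tested. That the genes are tissue-restricted is background knowledge, since no other tissue was measured.

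The cells were C57BL/6 mouse MLL-AF9 leukaemic cells, isolated from bone marrow and grown in liquid culture. MLL-AF9 is a fusion of a histone methyltransferase gene with a partner gene that drives acute myeloid leukaemia. The series' design gives both groups as Ring1a-/- (Ring1) and Cdkn2a-/-, a tumour suppressor locus, with floxed Ring1b (Rnf2). One group of 2 samples received OHT for 72 h and the other 2 samples received EtOH for 72 h. OHT commonly stands for hydroxytamoxifen, which activates a tamoxifen-dependent recombinase, and EtOH for its ethanol vehicle. The recombinase, and whether samples of a group were separate mice or cultures, are not given in the sources used here, so the spread between samples may be technical. No OHT-treated cells with intact Ring1b were analysed here, so OHT itself and loss of RING1B cannot be told apart.

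RING1A and RING1B are interchangeable catalytic subunits of the Polycomb complex PRC1, which attaches ubiquitin to histone H2A and is best known for keeping genes of other lineages off. The title of the series concerns the part of PRC1 activity in keeping leukaemic cells what they are. The 7 genes belong to different families, and are known from matrix, liver, muscle and neurons.

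The authors deposited 1 mean per group. Every group mean could be solved into whole reads of 2 libraries, called A and B within each group, and these letters are not tied to the labels' replicates. A is the library with the larger size factor in its group, so a shared letter links no libraries between groups. Their totals ran from 3841243 to 6255320 reads. Normalised reads are reads divided by the library's size factor. Rnf2 had 687 and 583 normalised reads with EtOH (libraries A and B) and 716 and 797 with OHT, and was not lower after OHT. The samples given OHT are titled as a Ring knockout, and the deleted exons are not given in the sources used here, so a count over the whole gene does not check the label. Ring1 had 60 and 65 reads with EtOH and 177 and 84 with OHT, and the Cdkn2a transcript NM_009877 had 72 and 29, then 52 and 46. Both genes, given as deleted, thus had reads in all 4 libraries, and whether these lie outside the deleted parts was not tested. The 16 myeloid marker genes summed to 6766 to 9623 normalised reads per library, with Spi1, Cebpa and Fcgr3 at 1008 to 1510.4 each in every library. Some others of this list were low or uneven. Kit had 4 and 0 reads in EtOH libraries A and B and 3 and 5 in OHT libraries A and B. In that order Csf3r had 2 and 2, then 9 and 2, Itgam 29 and 11, then 39 and 25, and Ptprc 123 and 18, then 64 and 52. Sums for 5 fibroblast, 5 endothelial, 3 erythroid and 6 B and T cell markers ran from 16.9 to 511 per library, with Pdgfra, Pdgfrb, Kdr and Cd4 at 0 reads with EtOH. The fibroblast sum was 29.0 and 26.0 with EtOH and 268 and 511 with OHT, of which Thy1 alone made up 233 and 481. Col1a2 had 0 reads with OHT, and Pdgfra and Pdgfrb had 3 each. The part of these sums in the results was not tested. Of these markers the authors' deposited table called Lyz2 (myeloid), Thy1 and Col1a1 (fibroblast) and Epor (erythroid) higher and 0 lower. Of all symbols, 3.94% were called higher and 2.02% lower. At an unadjusted p under 0.05, 2 myeloid, 2 fibroblast and 1 erythroid markers were higher and none was lower, against 7.82% and 6.64% of all transcripts. The myeloid ones were Lyz2 and Csf1r, the latter listed at 177 with EtOH and 1110 with OHT (adjusted p = 0.0666 in the authors' deposited table). Limma-voom called 2 of 14 fitted myeloid markers higher, 2 of 2 fibroblast, 1 of 2 endothelial (Vwf) and 1 of 2 erythroid ones, and none lower. Over all transcripts it fitted, limma-voom called 9.72% higher and 5.49% lower. Fewer cells of a type and less RNA per cell cannot be told apart in these bulk libraries.

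Mamdc2 and Angptl6 encode secreted proteins and were among the most depleted. Mamdc2 (NM_174857, chromosome 19), an extracellular proteoglycan built of MAM domains, had 836 and 741 normalised reads in EtOH libraries A and B and 4.199 and 16.7 in OHT libraries A and B. The EtOH libraries were close to each other and the OHT libraries, with 5 and 15 reads, lay far below them. The authors' deposited table gives means of 789 and 11.5, a 68.9-fold difference. The summed reads gave an 83.3-fold lower rate with OHT (exact 95% interval 53.8 to 137, counting error only). Angptl6 (NM_145154, chromosome 9), an angiopoietin-like factor known from liver, had 254 and 281 normalised reads with EtOH and 7.56 and 13.4 with OHT. It was 23.4-fold lower in the authors' deposited table, and 26.3-fold by summed reads (17.01 to 42.8).

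Cox6a2 (NM_009943, chromosome 7) encodes the heart and skeletal muscle form of subunit VIa of cytochrome c oxidase, the last enzyme of the respiratory chain. It had 337 and 443 normalised reads with EtOH and 3.36 and 32.4 with OHT. The OHT libraries lay far apart, at 4 and 29 reads, but both were at least 10.4-fold under the lower EtOH library. The authors' deposited table lists means of 391 and 18.8, a 20.7-fold difference.

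Avil and P2rx3 are both known from sensory neurons and were the most abundant of the 7. Avil (NM_009635, chromosome 10) encodes advillin, an actin-bundling protein of the villin and gelsolin family, and had 2312 and 1673 normalised reads with EtOH and 110.0 and 280.2 with OHT. P2rx3 (NM_145526, chromosome 2), an ATP-gated cation channel of pain-sensing neurons, had 2073 and 2823 with EtOH and 362 and 367 with OHT. Its EtOH libraries differed more than its OHT libraries, which were nearly equal. In the authors' deposited table Avil was 10.2-fold and P2rx3 6.70-fold lower after OHT. Per kb of transcript, P2rx3 stood at percentile 99.6 of 17634 transcripts of known length in EtOH and at percentile 82.9 in OHT. Avil went from percentile 96.5 to 64.7 on that scale.

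Cdr2l and Extl1 had the smallest differences. Cdr2l (NM_001080929, chromosome 11) is the paralogue of Cdr2, an antigen of Purkinje neurons in paraneoplastic cerebellar degeneration, and had 585 and 565 normalised reads with EtOH and 101 and 152 with OHT. Extl1 (NM_019578, chromosome 4), a glycosyltransferase of the exostosin family that builds heparan sulfate, had 410 and 379 with EtOH and 42.0 and 144 with OHT. The authors' deposited table puts Cdr2l 4.53-fold and Extl1 4.21-fold lower. Even for Extl1 the higher OHT library was 2.63-fold under the lower EtOH library.

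**Figure D1:**
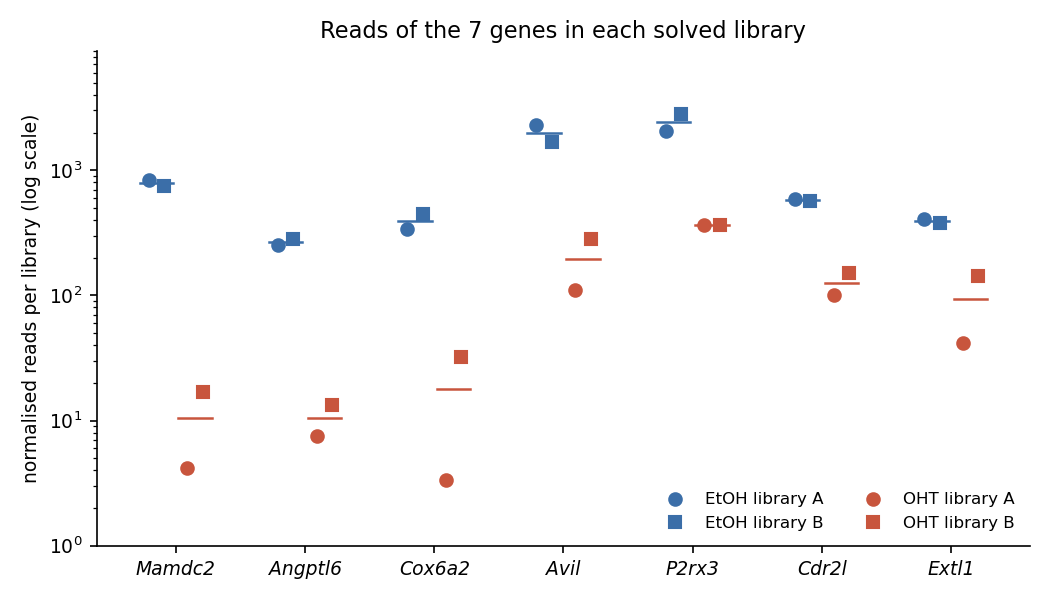
Normalised reads (vertical axis, log scale) of the 7 genes in each of the 4 solved libraries; circles are libraries A, squares libraries B, and bars the group means. In all 7 genes both OHT libraries lie under both EtOH libraries, and the OHT libraries lie furthest apart for Cox6a2, at 3.36 and 32.4.

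Both OHT libraries lay under both EtOH libraries for 7 of 7 genes, against 24.6% of all transcripts and 42.6% of those with an EtOH mean of at least 100. The choice of the genes fixed this, so nothing is read from it. Adjusted p was under 0.05 with a lower mean for 1.85% of all transcripts in the authors' deposited table, and for 0.155% with at least 4-fold lower means; all 7 genes are among the latter by their selection. Calls in either direction made up 5.48% of transcripts. Of 7209 transcripts with an EtOH mean of at least 100, 16 had an OHT mean at least 4-fold lower, and 7 of those 16 are the genes described here. Extl1 is the last of the 16, and Slc27a2, at 3.98-fold, is next in the authors' deposited table. On the log2 scale the median change was -3.35 for the 7 genes and 0.04 for all transcripts.

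**Figure D2:**
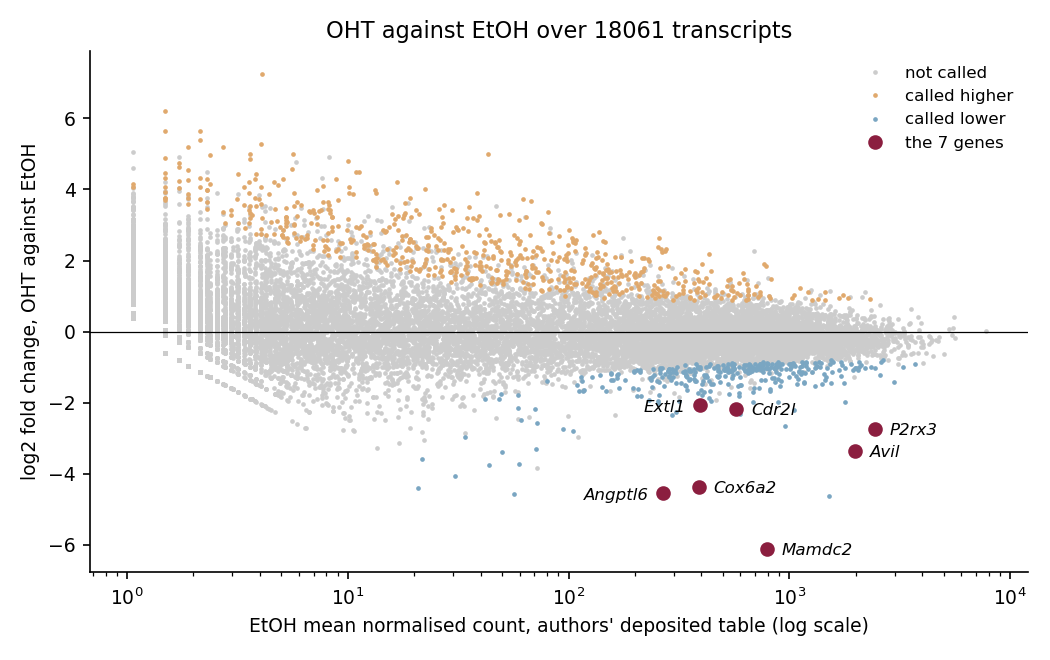
EtOH mean normalised count (horizontal axis, log scale) against the log2 fold change of OHT over EtOH for 18061 transcripts in the authors' deposited table; orange and blue dots have an adjusted p under 0.05. The 7 genes lie between -2.07 and -6.11, below nearly all transcripts of similar level.

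The share of normalised reads left after OHT differed between the OHT libraries. OHT library A kept 0.533% of the EtOH mean of Mamdc2, 0.862% of Cox6a2, 2.83% of Angptl6, 5.52% of Avil, 10.7% of Extl1, 14.8% of P2rx3 and 17.5% of Cdr2l. OHT library B kept 2.12% of Mamdc2, 5.01% of Angptl6, 8.31% of Cox6a2, 14.1% of Avil, 15.004% of P2rx3, 26.4% of Cdr2l and 36.5% of Extl1. Mamdc2 was lowest in both libraries, while Extl1, behind Cdr2l and P2rx3 in library A, was highest in library B.

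Library B was the higher OHT library for all 7 genes, and for 5 of them the exact 95% counting interval of the ratio lay above 1. The ratio of B to A was 9.64 for Cox6a2 (3.38 to 37.7), 3.99 for Mamdc2 (1.38 to 14.03), 3.43 for Extl1 (2.46 to 4.85), 2.55 for Avil (2.05 to 3.17) and 1.51 for Cdr2l (1.17 to 1.94). The intervals of Angptl6 (1.77, from 0.685 to 4.76) and P2rx3 (1.01, from 0.876 to 1.17) included 1. The EtOH libraries showed no common direction, with B the higher for 3 of 7.

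Other transcripts that OHT changed differed between these libraries too. Among transcripts whose group means summed to at least 100, the median log2 ratio of OHT library B to A was 1.34 for the 7 genes, 0.26 for the 311 other transcripts called lower, 0.06 for 7585 not called and -0.16 for 475 called higher, all with 1 read added. Library B was the higher one for 81.0% of the other lower calls, 58.5% of transcripts not called and 32.0% of higher calls. The same ratio between the EtOH libraries had a median of -0.05 for the 7 genes, 0.09 for the other lower calls, -0.07 for transcripts not called and -0.47 for higher calls. By these medians, higher calls were lower in library B of both groups, the library with the smaller size factor. Library B was still the higher EtOH library for 24.4% of the higher calls. The 8 other lower calls of at least 4-fold had medians of 0.40 (OHT) and 0.37 (EtOH). These are ratios between 2 libraries and have no replicate check, and no test of the difference between the 7 genes and the rest was made. Mpo, the neutrophil granule enzyme myeloperoxidase, also parted these libraries, at 351 normalised reads in OHT library A and 50.2 in B, with 18.2 and 160.2 in EtOH libraries A and B; its part in the result was not tested.

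The fold differences therefore depended on which OHT library was used. Against OHT library A alone, Mamdc2 was 188-fold, Cox6a2 116-fold, Angptl6 35.4-fold, Avil 18.1-fold and Extl1 9.39-fold below the EtOH mean of normalised reads. Against OHT library B alone, they were 47.1-fold, 12.04-fold, 19.97-fold, 7.11-fold and 2.74-fold lower. For P2rx3 both came to 6.76-fold and 6.67-fold, and for Cdr2l to 5.71-fold and 3.79-fold.

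**Figure D3:**
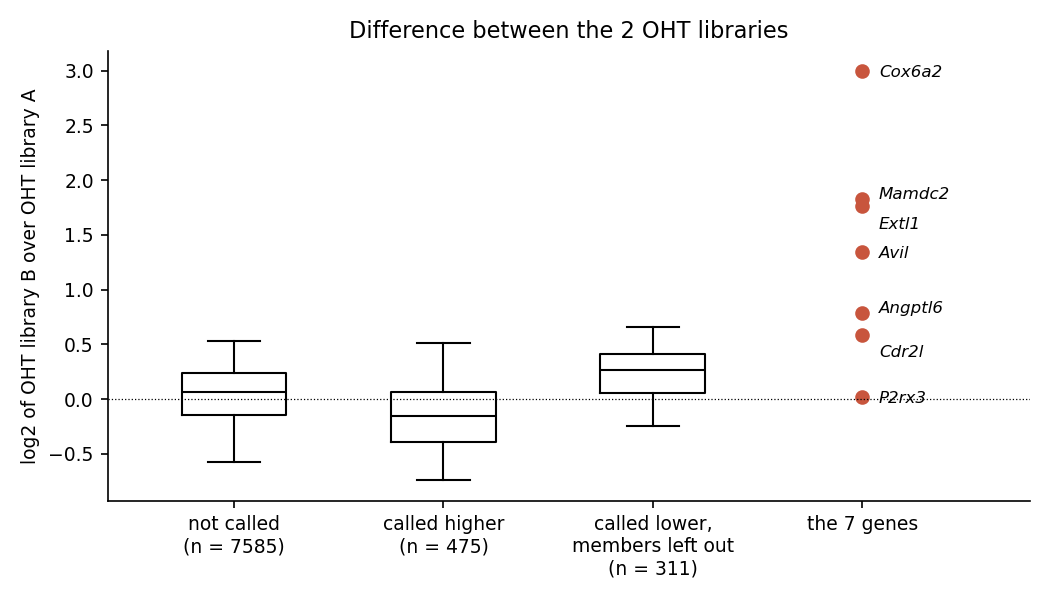
Log2 ratio of OHT library B to OHT library A (vertical axis, 1 read added) for transcripts whose group means sum to at least 100; boxes span the quartiles with the median as a line, whiskers the 5th to 95th percentile, and dots are the 7 genes. The genes range from 0.02 for P2rx3 to 2.996 for Cox6a2, against medians of 0.06, -0.16 and 0.26 for transcripts not called, called higher and called lower.

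The promoters of 3 of the genes are held in the RefSeq promoter table of build GRCm38.p6, and the 250 bases before their starts are shown because these genes were lower together and PRC1 is known to bind promoters rich in CG pairs. Angptl6 lies at chr9:20879711-20879960 on the minus strand, Avil at chr10:127000459-127000708 on the plus strand and Extl1 at chr4:134372548-134372797 on the minus strand. Capitals mark matches on either strand to GATAA, the core bound by GATA factors, CCAAT, the box bound by NF-Y, and TGTGGT, the core bound by RUNX factors.
Angptl6: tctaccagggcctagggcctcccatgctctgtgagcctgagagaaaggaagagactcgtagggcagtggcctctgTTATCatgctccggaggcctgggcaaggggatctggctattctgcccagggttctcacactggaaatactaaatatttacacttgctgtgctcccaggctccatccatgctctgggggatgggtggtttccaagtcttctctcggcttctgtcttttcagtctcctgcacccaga
Avil: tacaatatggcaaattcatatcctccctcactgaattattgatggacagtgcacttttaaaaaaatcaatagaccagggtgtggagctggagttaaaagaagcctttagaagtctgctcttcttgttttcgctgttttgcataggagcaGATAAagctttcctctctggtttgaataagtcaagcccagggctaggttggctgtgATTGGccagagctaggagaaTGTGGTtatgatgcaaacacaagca
Extl1: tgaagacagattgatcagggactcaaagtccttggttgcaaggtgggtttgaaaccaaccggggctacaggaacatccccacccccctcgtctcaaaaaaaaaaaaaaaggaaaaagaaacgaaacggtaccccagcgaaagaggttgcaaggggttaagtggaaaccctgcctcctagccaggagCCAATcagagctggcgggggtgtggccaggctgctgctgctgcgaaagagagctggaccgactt
Avil held 1 CG pair, Angptl6 3 and Extl1 8, against a median of 6 over 32851 promoters of that length (quartiles 2 and 16). No motif searched was found in all 3. GATAA matched in Angptl6 and Avil and occurs in 22.6% of all promoters, CCAAT matched in Avil and Extl1 and occurs in 33.8%, and TGTGGT matched in Avil and occurs in 14% of them. CANNTG, the E-box, matched once, in Angptl6, against 66.2% of all promoters. No match was found in these windows to the ETS motif GGAAGT (in 19.7% of all promoters), the MEIS motif TGACAG (15.9%), the TATA box TATAAA (12.4%) or the GC box GGGCGG (32.7%). No overlaps between motifs occurred, and a match is only a match of letters.

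The genes lie on 7 different chromosomes, and none of their nearest neighbours was called with them. For each gene the nearest 2 measured genes on either side were taken in the GRCm38.p6 gene order. Of these 28 neighbours none was called in the authors' deposited table, where 2.02% of symbols were called lower and 3.94% higher. At an unadjusted p under 0.05, 3 were lower and 5 higher in the authors' deposited table, against 6.64% and 7.82% of all transcripts. Limma-voom, fitted to the solved reads of 11338 transcripts with at least 10 reads in 2 libraries, with Benjamini-Hochberg adjustment, called 3 of the 20 neighbours it could fit: Ppan (-0.94 ± 0.25 SE, adjusted p = 0.0327) and Ict1 (-0.94 ± 0.28 SE, adjusted p = 0.0460) lower and Col5a3 (1.29 ± 0.33 SE, adjusted p = 0.0276) higher. It called 5.49% of all fitted transcripts lower and 9.72% higher, so the share is near the background. Without EtOH library A it called 6 neighbours lower and 2 higher, without EtOH library B or without OHT library A it called none, and without OHT library B it called Ppan and Col5a3.

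The contrast in level between gene and neighbour was plain at several loci in the authors' deposited table. Beside Mamdc2, Klf9 was listed at 279 and 196 with EtOH and OHT and Ptar1 at 69.8 and 48.3. Beside Angptl6, Ppan, a ribosome biogenesis factor, was listed at 1478 and 762 and the translation factor gene Eif3g at 1170 and 778. Beside P2rx3 lie Prg2 and Prg3, which encode eosinophil granule proteins, listed at 992 and 586 and at 136 and 70.3. Beside Cox6a2, Armc5 was listed at 377 and 272. Of 15 neighbours with an EtOH mean of at least 100, 12 had a negative log2 fold change, as did 64.0% of all 7209 transcripts of that level.

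Some of these loci overlap, and the TruSeq RNA kit, version 2, keeps no strand. In the GENCODE M21 annotation of GRCm38, 265 exon bases of Angptl6 (16.8% of its transcript) are shared with A230050P20Rik on the opposite strand, 165 of Avil (5.44%) with Tsfm and 70 of Cox6a2 (10.3%) with Itgad, which spans Cox6a2. These partners stood at means of 88.3 and 125 (A230050P20Rik), 379 and 256 (Tsfm) and 9.83 and 3.08 (Itgad) with EtOH and OHT in the authors' deposited table. Reads that lie in the shared bases of such a pair cannot be told apart. No exon bases shared with another gene were found there for Mamdc2, P2rx3, Cdr2l and Extl1.

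**Figure D4:**
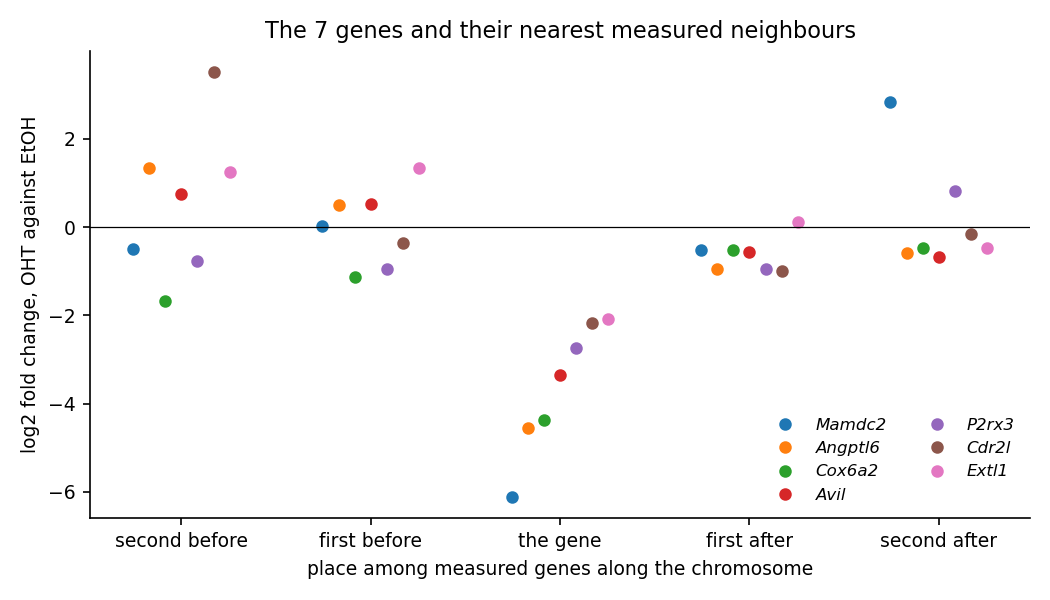
Log2 fold change of OHT over EtOH (vertical axis) for each of the 7 genes (middle column) and the nearest 2 measured genes on each side (other columns), from the authors' deposited table; colours give the locus. The 7 genes lie at -2.07 or lower, and the 28 neighbours between -1.67 and 3.51. The genes were chosen for their fall, so nothing is read from this separation.

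Relatives of the 7 genes by protein family or pathway were not called lower with them. Of 90 relatives listed, 76 were measured; 4 rose (5.26%, against 3.94% of all symbols) and 0 were called lower (against 2.02%) in the authors' deposited table, where 1 (Glce) was lower and 12 were higher at an unadjusted p under 0.05, against 6.64% and 7.82% of all transcripts. Their log2 fold changes had a median of 0.43, beside 0.04 over all symbols, and 15 of them had at most 3 reads in each group. Limma-voom with Benjamini-Hochberg adjustment called 7 of the 45 it could fit higher and none lower, against 9.72% and 5.49% of all transcripts it fitted. At the adjusted p of the authors' deposited table the share that rose is near its background. At the unadjusted p and in limma-voom the shares that rose were above theirs, and the difference was not tested.

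Within 4 of the families another member rose in the authors' deposited table while the gene described here was lower. Nrp1, the semaphorin and VEGF co-receptor neuropilin 1, rose from 54.0 to 535 and was the call among 11 measured MAM-domain genes (adjusted p = 5.51e-16). Angptl2, a secreted angiopoietin-like factor, rose from 75.9 to 218 (adjusted p = 0.00403). It was the call among 9 measured genes, which were angiopoietin and angiopoietin-like genes and a receptor gene. P2ry6, a UDP receptor, rose from 6.69 to 69.9 and was the call among 13 P2X and P2Y receptor genes (adjusted p = 2.34e-05). Extl3, the exostosin-like enzyme that starts heparan sulfate chains, rose from 171 to 569 and was the call among 20 genes of heparan sulfate synthesis (adjusted p = 7.26e-06). None of 15 cytochrome oxidase genes, 7 villin and gelsolin genes or the single CDR2 relative was called in the authors' deposited table, with 1 (Vill, higher) at an unadjusted p under 0.05. Limma-voom could fit 11, 5 and 1 of them and called none; with no filter on low counts it called Vill higher.

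Set beside related genes per kb of transcript, several of the 7 changed place. The 7 genes were chosen for their fall, so this is a description only. The next values are normalised reads per kb, a level. P2rx3 had 1144 and 1558 in EtOH libraries A and B, above P2rx1 (342 and 237) and P2rx4 (218 and 124). In OHT libraries A and B it had 199.8 and 202.7, under P2rx4 (304 and 417) and close to P2rx1 (209 and 286). P2rx3 was thus the highest of these P2X transcripts in both EtOH libraries and under P2rx4 in both OHT libraries.

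Avil had 762 and 552 normalised reads per kb with EtOH, above Flii, an actin-remodelling relative, in each library (507 and 366). With OHT Avil had 36.3 and 92.4 and Flii 595 and 572. Angptl6 had 160.4 and 178 with EtOH against 96.8 and 102 for Angptl4, a lipoprotein lipase inhibitor, and 4.78 and 8.47 with OHT against 78.7 and 78.6. Cdr2l had 158 and 153 with EtOH against 57.5 and 38.7 for Cdr2, and 27.2 and 41.0 with OHT against 65.5 and 61.0. In each of these pairs the order was reversed in both libraries of the other group.

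Cox6a2 and Extl1 were not the leading member in either group. Cox6a2 had 495 and 651 normalised reads per kb with EtOH, under its widely expressed paralogue Cox6a1 (889 and 1339). With OHT it had 4.94 and 47.6, while Cox6a1 stood at 878 and 1128. The other muscle isoforms of the enzyme were far lower with EtOH, at 44.3 and 36.4 for Cox7a1 and at 0 and 3.62 for Cox8b. Extl1 had 99.3 and 91.8 with EtOH and 10.2 and 34.9 with OHT, under the heparan sulfate polymerase gene Ext2 in both groups (279 and 203, then 212 and 305). Extl3 went from 31.2 and 25.7, under Extl1, to 101 and 88.7, above it.

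**Figure D5:**
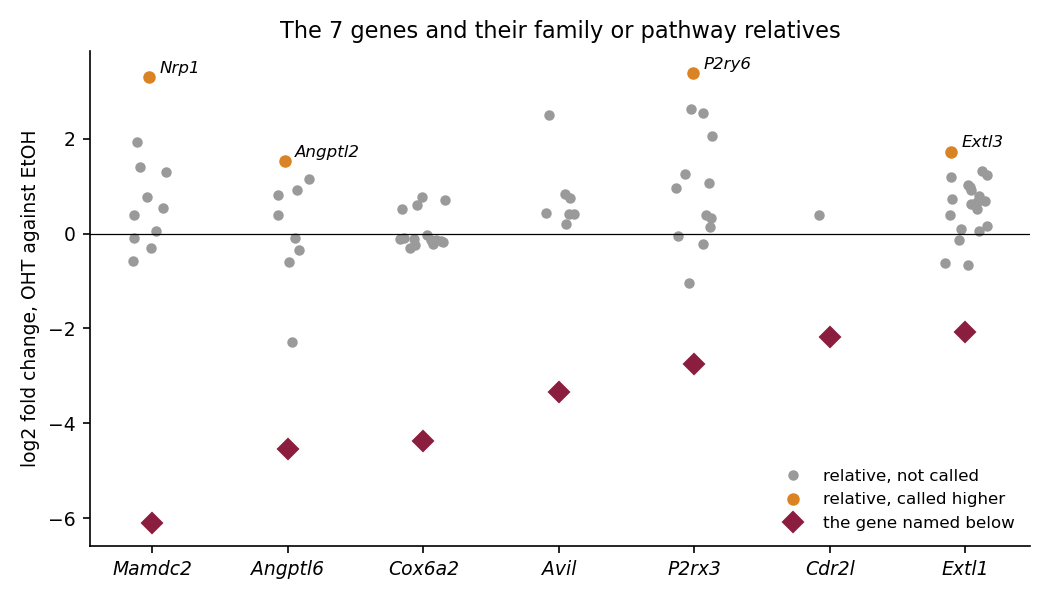
Log2 fold change of OHT over EtOH (vertical axis) for each of the 7 genes (diamonds) and its measured family or pathway relatives (dots), from the authors' deposited table; orange dots have an adjusted p under 0.05. Nrp1, Angptl2, P2ry6 and Extl3 are the relatives called, all higher. Every relative lies above the gene it is listed with, and the lowest relative is at -2.28. The genes were chosen for their fall, so nothing is read from their place below the relatives.

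Listed genes of sensory neurons and striated muscle were not called lower in the authors' deposited table. Of 34 sensory neuron genes 16 were measured and none was called in the authors' deposited table, where 3.94% of symbols were called higher and 2.02% lower, with 1 higher at an unadjusted p under 0.05. Limma-voom could fit 4 of the 16 and called none, against 9.72% higher and 5.49% lower among all transcripts it fitted. A median of 0.84 was found for their log2 fold changes, and 7 of the 16 had at most 3 reads in each group. Nefh, a neurofilament subunit, was listed at 550.3 and 434 and Pou4f1, a sensory neuron transcription factor, at 39.4 and 85.4 in the authors' deposited table. Trpv1 and Trpa1, channels of pain-sensing neurons, had 1 read each over the EtOH libraries and 0 with OHT. The list summed to 512 and 708 normalised reads with EtOH and to 560.2 and 616 with OHT, so it overlapped between groups. Nefh made up most of these sums, at 455 and 643 with EtOH and 373 and 493 with OHT, so they say little about the other genes.

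Of 40 striated muscle genes 24 were measured, of which the authors' deposited table called 1 higher and 0 lower, with 2 lower (Ckm and Ryr1) at an unadjusted p under 0.05. The 1 higher call is 4.17% of the list, near the 3.94% of all symbols, and 6.64% of all transcripts were lower at that unadjusted p. Limma-voom could fit 11 of the 24 and called 1 higher and none lower, against 9.72% and 5.49% of all transcripts it fitted. The riser was Tnni2, the inhibitory troponin of fast muscle, from 8.88 to 42.8 (adjusted p = 0.0213). The muscle creatine kinase gene Ckm was listed at 106 and 50.7 (adjusted p = 0.106) in the authors' deposited table. The list's median log2 fold change was -0.14, and it summed to 700 and 757 normalised reads with EtOH and 609 and 433 with OHT. Ryr1 made up much of these sums, at 406 and 366 with EtOH and 275 and 161 with OHT. Its adjusted p in the authors' deposited table was 0.139. Myh2 and Myl2 had 2 EtOH reads each, and Myl3, Ttn and Myog had 0.

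The 5 other transcripts with the most similar profiles over the 4 libraries were found by the distance between log2 normalised reads, each centred on its own mean, and the median profile of the 7 genes, among transcripts with an EtOH mean of at least 100. They were the noncoding RNA 4930509E16Rik (distance 0.73), Cth, the enzyme that makes cysteine (1.27), Col4a1, a basement membrane collagen chain (1.41), Recql4, a DNA helicase (1.42), and the noncoding RNA 5430416N02Rik (1.48). The 7 genes themselves lay at 0.08 (Avil) to 2.86 (Mamdc2) from that profile, so these transcripts were no further from it than some of the genes. Cth had 920.5 and 1168 normalised reads with EtOH and 72.2 and 383 with OHT, with library B the higher OHT library as for the 7 genes. Col4a1 had 1327 and 1697 with EtOH and 53.8 and 68.1 with OHT, and Recql4 828 and 1082 against 153 and 148. Being drawn from the same 4 libraries and the same contrast, this likeness is a description only.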

How the data were processed

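RNA-seq libraries of 4 samples were made with the TruSeq RNA kit, version 2, per the labels' protocols. TopHat, DESeq and build mm9 are named in the submitters' processing notes; the read counter is not given in the sources used here. The only file is the authors' own comparison. Its signal columns are, per the file headers, the base mean of normalised counts in each group; its deposited ratio and log2 columns compare OHT with EtOH, and its deposited p-value columns hold a p and an adjusted p per transcript. The design foresaw such a table, so calls are the authors' deposited adjusted p under 0.05.

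Each group mean was taken as the average of 2 libraries, each holding whole reads plus 1 divided by its size factor (1.206 and 0.768 for EtOH A and B, 1.191 and 0.896 for OHT A and B), and solved for those reads. The solution was unique for 100% of transcripts. Of means shifted slightly as a check, 0.0997% (EtOH) and 0.116% (OHT) had a solution. Normalised reads in the text leave the added read out. The solver and the limma fit were tested on simulated data. Limma 3.58.1 (voom, R 4.3.3) was fitted to 11338 transcripts with at least 10 reads in 2 libraries, with 2 residual degrees of freedom and Benjamini-Hochberg adjustment. Counting intervals are exact binomial at 95% (scipy 1.17.1) and cover counting error only. Genes with at most 3 reads in each group are counted apart. Lists use 1 transcript per symbol, that of highest mean.

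Lengths, matched by accession for 97.6% of transcripts, and overlaps come from GENCODE M21; gene order, matched for 98.6%, and promoters come from RefSeq GRCm38.p6. Neither is mm9, so coordinates are given for promoters only, in GRCm38.p6. The members and lists were chosen with earlier results of these data known. Genes named are the 7 members, called list genes, close paralogues, neighbours and the 5 nearest profiles. Slc27a2, Ryr1, Ckm, Glce, Vill, Trpv1, Trpa1, Myh2, Myl2, Myl3, Ttn, Myog, P2rx1, Cox7a1 and Cox8b were named after their values were seen. So were Mpo, Elane, Prtn3, Ctsg, Spi1, Cebpa, Fcgr3, Csf1r, Kit, Csf3r, Itgam, Ptprc, Vwf, Col1a2 and the markers at 0 reads.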

Additional observations from a re-analysis of the deposited data

How the results depend on the processing

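All 70 values of single members under the alternatives stayed negative, and 67 moved by less than the spread between libraries. The exceptions were Mamdc2 (-7.42) and Cox6a2 (-6.66) in limma-voom without OHT library B, and Angptl6 (-3.76) with 10 added to each normalised value. The members' median log2 fold change, -3.35, ran from -4.17 without OHT library B to -2.82 without OHT library A. Counts of calls over all transcripts moved more. The 335 lower and 654 higher calls of the authors' deposited table became 163 and 432 at an adjusted p under 0.01. Limma-voom called 623 and 1102, with 488 and 1168 scaled by total reads, 471 and 1304 by the upper quartile, and 800 and 1646 with no filter. Leaving out 1 library at a time gave 133 (without OHT library A) to 1075 (without EtOH library A) lower and 795 to 1597 higher calls at those same omissions. Of the relatives, 4 were called higher in the authors' deposited table; limma-voom called 7, also 7 when scaled by total reads or by the upper quartile, and 11 with no filter. Leaving out 1 library gave 5 (without EtOH library B) to 10 (without EtOH library A) higher and 0 to 1 lower, the 1 being Glce without EtOH library B. With 2 libraries a group, the lone library of an omission is assumed to vary like the others. Scaling by total reads or by the upper quartile shifted OHT against EtOH by 0.05 and 0.08 on the log2 scale. No paired analysis was possible because the solved libraries carry no replicate numbers. Depth limits Mamdc2, Angptl6 and Cox6a2 most, with 20, 21 and 33 reads over the OHT libraries.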

Other observations

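Neutrophil granule genes Mpo and Elane varied more between libraries of the same treatment than between the treatment means. Mpo had 18.2 and 160.2 normalised reads in EtOH libraries A and B and 351 and 50.2 in OHT libraries A and B. Elane, neutrophil elastase, had 110.3 and 527 with EtOH and 504 and 159.6 with OHT. In both genes EtOH library B and OHT library A were the high ones, whereas for the 7 genes the higher OHT library was B. Among the other myeloid markers listed, Prtn3 had the same order, at 531 and 1189 with EtOH and 740 and 550 with OHT. Ctsg had 905 and 1201 with EtOH and 550 and 855 with OHT, so its higher OHT library was B. Mpo, Elane, Prtn3 and Ctsg were chosen after their values were seen.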
